A study of Mus musculus with 13 samples.

Results

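The comparison between macrophages given LPS together with IL-10 and macrophages given LPS alone was described across all regions of H3K27ac, a histone mark made by acetylating lysine 27 of histone H3. It rests on 6 of the 13 libraries of the series and on all 40691 consensus regions of the deposited table, of which 36621 were strong enough to be tested. All cells were mouse bone marrow-derived macrophages of strain 129S6/SvEvTac and genotype IL10-/-RAG2-/-, grown from marrow precursors in medium with M-CSF, so every group lacks Il10 and Rag2, and the animals make no mature lymphocytes. The LPS group received LPS, the lipopolysaccharide of Gram-negative bacteria, at 1 ng/mL for 195 min. The continuous group received the same LPS, and from its start to its end also 1 ng/mL of IL-10. Untreated cells and cells given IL-10 only in the last 30 min of the LPS exposure (late IL-10) had 3 libraries each and are given here as side by side values. The 3 libraries of a group came from 3 independent macrophage pools, and the replicate number was taken as the pool.

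LPS binds TLR4 and, through the adaptors MyD88 and TRIF, switches on NF-kB and IRF3. The first wave includes cytokine and chemokine genes and interferon beta, which then acts back on the cell through STAT2, IRF9 and other factors to switch on antiviral genes. IL-10 is an anti-inflammatory cytokine that signals through its receptor, JAK1, TYK2 and STAT3, and it restrains the macrophage response to LPS. H3K27ac marks active promoters and enhancers, and its level at a gene is not a measure of the gene's RNA.

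Stretches of promoter sequence are shown first for 6 genes whose start site lay in a called region, to let the interferon-type and NF-kB-type letters be seen beside the values. They were chosen after the values were seen. Each is the 250 bases before the RefSeq start site in build GRCm38.p6 (the same build as mm10), 5′ to 3′ along the gene, from the C57BL/6J reference and not from the 129S6/SvEvTac cells. In the first 4, capitals mark GAAANNGAA followed by one more A (either strand), the core of the interferon-stimulated response element bound by STAT2 and IRF9. The windows are chr12:26456453-26456702, minus strand for Rsad2, chr5:92348890-92349139, minus strand for Cxcl10, chr19:34640639-34640888, plus strand for Ifit1 and chr10:128270248-128270497, plus strand for Stat2.
Rsad2: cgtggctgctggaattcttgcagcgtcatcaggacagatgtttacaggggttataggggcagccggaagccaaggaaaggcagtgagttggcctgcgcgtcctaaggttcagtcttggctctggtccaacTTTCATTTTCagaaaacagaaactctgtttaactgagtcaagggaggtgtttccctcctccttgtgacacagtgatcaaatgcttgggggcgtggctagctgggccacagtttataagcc
Cxcl10: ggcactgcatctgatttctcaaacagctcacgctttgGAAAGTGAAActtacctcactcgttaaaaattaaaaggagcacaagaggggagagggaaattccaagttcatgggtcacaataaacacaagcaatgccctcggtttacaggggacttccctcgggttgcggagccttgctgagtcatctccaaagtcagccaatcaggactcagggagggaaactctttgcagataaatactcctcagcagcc
Ifit1: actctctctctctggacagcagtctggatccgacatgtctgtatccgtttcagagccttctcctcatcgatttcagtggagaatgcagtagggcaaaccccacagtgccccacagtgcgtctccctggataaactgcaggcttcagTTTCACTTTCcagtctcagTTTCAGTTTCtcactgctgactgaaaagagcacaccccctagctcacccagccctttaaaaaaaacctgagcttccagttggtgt
Stat2: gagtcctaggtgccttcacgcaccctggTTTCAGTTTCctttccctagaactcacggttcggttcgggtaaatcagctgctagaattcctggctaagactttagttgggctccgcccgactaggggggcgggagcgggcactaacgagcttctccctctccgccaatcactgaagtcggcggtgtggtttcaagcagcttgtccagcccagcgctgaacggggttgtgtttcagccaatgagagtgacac
In the Il6 window (chr5:30012864-30013113, plus strand), capitals mark GGGANTTTC followed by one more C, an NF-kB-type sequence. In the Socs3 window (chr11:117969367-117969616, minus strand), they mark TTCNNNGAA, the short palindrome that STAT proteins bind.
Il6: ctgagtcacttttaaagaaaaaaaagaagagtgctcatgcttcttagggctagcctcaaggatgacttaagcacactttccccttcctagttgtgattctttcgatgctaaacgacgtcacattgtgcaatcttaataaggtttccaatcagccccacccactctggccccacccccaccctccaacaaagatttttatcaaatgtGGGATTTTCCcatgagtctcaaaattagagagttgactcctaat
Socs3: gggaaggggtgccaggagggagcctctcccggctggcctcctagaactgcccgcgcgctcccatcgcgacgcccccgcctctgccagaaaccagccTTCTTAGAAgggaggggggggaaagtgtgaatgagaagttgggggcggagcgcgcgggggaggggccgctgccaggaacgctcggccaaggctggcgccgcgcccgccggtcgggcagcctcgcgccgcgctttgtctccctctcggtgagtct
The first matched base lay at -120 from the start site in Rsad2, -213 in Cxcl10, -222 in Stat2, -44 in Il6 and -154 in Socs3, and the 2 matches in Ifit1 lay at -104 and -85. The regions around the first 5 start sites were lower with continuous IL-10 and the region around that of Socs3 was higher, with the values given under each gene. These regions were 10559 bp (Stat2) to 100056 bp (Socs3) wide, so a difference is not placed at the 250 bases shown.

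The deposited signal is a whole number of reads times 1 factor per library, and no value was below 1 read. The 6 libraries held between 5149730 and 20884182 such reads in regions, and the share of regions at exactly 1 read was between 22.5% and 29.9%. A value at this floor is not shown to be free of H3K27ac. Correlations of log2 values over regions were between 0.721 and 0.916 within LPS and between 0.803 and 0.880 within continuous IL-10. LPS replicate 3, the deepest of the 6, correlated least with the other LPS libraries, and at many induced genes it was lower than they were. All 9 macrophage markers had a region, with summed values between 36373 and 52241 in the LPS libraries and between 40335 and 45601 with continuous IL-10. Gene values below are sums of the deposited value over a gene's regions, and all differences are log2 differences, continuous IL-10 plus LPS minus LPS, from limma with the pool as a block.

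With continuous IL-10, H3K27ac was lower at 14 of 23 inflammatory cytokine genes, 10 of 21 chemokine genes and 36 of 43 interferon response genes, and higher at 16 of 36 IL-10 and STAT3 target genes. The largest falls at genes followed by name were at the cytokine genes Il6 and Il12b, and the largest rises at Elane and Zfp618. Elane lay at the floor in LPS replicates 1 and 2. Of the 36621 regions tested, 2719 were higher (7.42%) and 3287 were lower (8.98%) at an adjusted p under 0.05. Without the pool block the counts were 1201 (3.28%) and 1186 (3.24%). The direction held in all 3 pools at 2694 of the higher and 3199 of the lower regions. Of the regions without a call, 32.4% also moved one way in all 3 pools. The calls use these same libraries, so such counts are a description. The 3 libraries of one group lay beyond the 3 of the other at 2316 of the higher and 2452 of the lower regions. Over all tested regions, 10.6% had such separated libraries in each direction, and over all genes 8.09% upward and 13.2% downward. Among genes, 988 of 13480 were higher (7.33%) and 1379 lower (10.2%), against 351 (2.6%) and 432 (3.2%) without the block. Leaving out LPS replicate 1 gave 1724 higher and 1650 lower regions, leaving out LPS replicate 2 gave 1694 and 1439, and leaving out continuous replicate 2 gave 1812 and 1988.

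**Figure D1:**
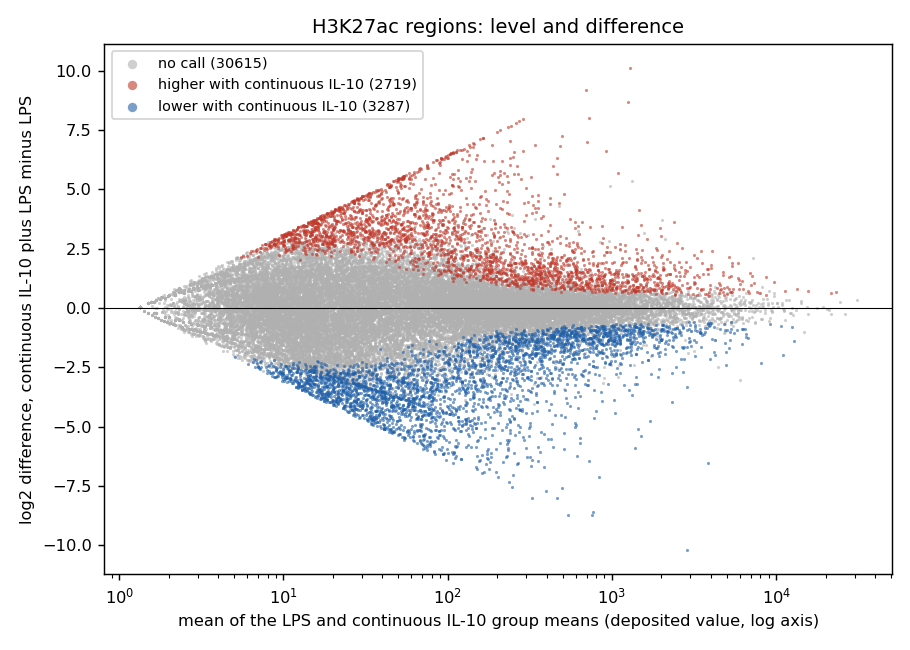
Each point is 1 of the 36621 tested regions, with the mean of the 2 group means of the deposited value (log axis) against the log2 difference. Red points are the 2719 higher and blue points the 3287 lower regions, and the straight upper and lower edges are regions at the floor in one of the groups.

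The called differences were large on the deposited scale. The median log2 difference was 2.70 among higher and -2.92 among lower regions, or 2.53 and -2.80 with floor values set to 3 reads. Of the higher regions, 527 lay at or under 3 reads in every LPS library, and 751 of the lower regions did so in every continuous library. Side by side, the higher regions had a median value of 164 in untreated cells, 31.3 with LPS, 179.7 with continuous IL-10 and 137 with late IL-10. The lower regions had 26.1, 199, 21.6 and 134 in the same order. The regions were chosen on the LPS and continuous values, so these medians are a description.

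Il6, which encodes a pro-inflammatory cytokine of the acute phase response, had the lowest difference of any gene examined by name. Its value was 10200.0, 12850.5 and 424 in LPS replicates 1, 2 and 3 and 8.43, 6.35 and 4.93 in the continuous replicates. Every LPS library was far above every continuous one, LPS replicate 3 was much lower than the other LPS libraries, and all 5 Il6 regions lay at 1 read in each continuous library. The log2 difference was -9.01 (SE 0.78, adjusted p = 2.87e-05). The region over the gene (chr5:30006893-30019440) fell from 1522 ± 1196 (SD, n = 3) to the floor. Its group mean was at least 386-fold lower in the deposited value against a floor of 3 reads per library. LPS replicate 3 alone was at 147 there. A region upstream of the gene (chr5:29910297-29979424, 69128 bp) fell as well, with a log2 difference of -10.20 (adjusted p = 1.27e-05), as did the region between them, at -5.37 (adjusted p = 0.0483). The call of that middle region was not held without the block (adjusted p = 0.219).

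Il12b, which encodes the p40 subunit shared by IL-12 and IL-23, was similar. The LPS values were 4106, 2946 and 303 and the continuous values 42.2, 6.35 and 16.8. The groups did not overlap, and again LPS replicate 3 was the lowest of the LPS libraries. The log2 difference was -6.44 (SE 0.73, adjusted p = 1.47e-04). Of its 4 tested regions 3 fell. The one over the start site (chr11:44386708-44406028) was at least 200.1-fold lower in the group mean, with LPS replicate 3 alone at 94.6. An upstream one (chr11:44361618-44384462) had a log2 difference of -8.73 (adjusted p = 3.04e-04). The summed values of the gene in untreated cells were 213, 132 and 13.8.

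Of 23 inflammatory cytokine genes tested, 14 fell and none rose, beside 10.2% of all genes lower and 7.33% higher. The list had a median log2 difference of -1.44 against 0.03 over all genes. Without the block 9 fell. Il15, a cytokine that supports natural killer and memory T cells, had LPS values of 9739.6, 14228 and 2639 and continuous values of 1649, 1321 and 553. Each pool was lower with IL-10 and the groups did not overlap, for a difference of -2.75 (SE 0.25, adjusted p = 4.53e-06). Tnfsf15, a TNF family ligand gene, differed by -2.99 (SE 0.31, adjusted p = 1.53e-05), with overlapping libraries and an adjusted p of 0.0828 without the block. Tnf, the tumor necrosis factor gene, had a smaller difference. Its LPS values were 14928, 17258 and 15555 and its continuous values 7771, 9600.4 and 9772, all 3 above the untreated values of 4191, 3736 and 5344. The difference was -0.82 (SE 0.17, adjusted p = 0.00396), and since 1 region of 52840 bp covers Tnf, Lta and Ltb, it counts for all 3 genes of the list.

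Il27, the p28 subunit gene of IL-27, differed by -0.70 (SE 0.23, adjusted p = 0.0436). That call was lost without LPS replicate 1, LPS replicate 2, continuous replicate 1, continuous replicate 2 and continuous replicate 3 (adjusted p = 0.184, 0.231, 0.119, 0.109 and 0.0988) and without the block (0.126). Il1b, the interleukin-1 beta gene, was not called: its LPS values were 11280.3, 15514 and 2824, its continuous values 7266, 5917 and 3406, and the groups overlapped (log2 difference -0.58, SE 0.39, adjusted p = 0.378).

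Chemokine genes showed the same direction at 10 of 21 members, and 1 rose, beside 10.2% of all genes lower and 7.33% higher. Their median was -1.33, and without the block 5 fell and none rose. The count of falls differed by no more than 1.5 times when any one library was left out. Ccl2, the main monocyte-attracting chemokine gene, had LPS values of 4590.4, 5208 and 1214 and continuous values of 555, 279 and 203. The continuous values lay below the untreated ones of 1005, 1272 and 404 pool by pool. The difference was -3.28 (SE 0.27, adjusted p = 2.36e-06). Cxcl10, a ligand of CXCR3 that attracts T cells, had LPS values of 9791, 9962 and 3863 and continuous values of 2789, 1506 and 1892, with no overlap and a difference of -1.86 (SE 0.26, adjusted p = 1.60e-04), while untreated cells had 271, 269.8 and 209. Cxcl9, another CXCR3 ligand gene, differed by -2.96 (SE 0.39, adjusted p = 1.10e-04) and Ccl5 by -1.27 (SE 0.26, adjusted p = 0.00309). Without the block the adjusted p of Ccl5 was 0.0502. Cxcl3, a neutrophil-attracting chemokine gene, differed by -1.97 (SE 0.29, adjusted p = 2.85e-04), with 0.0622 without the block.

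**Figure D2:**
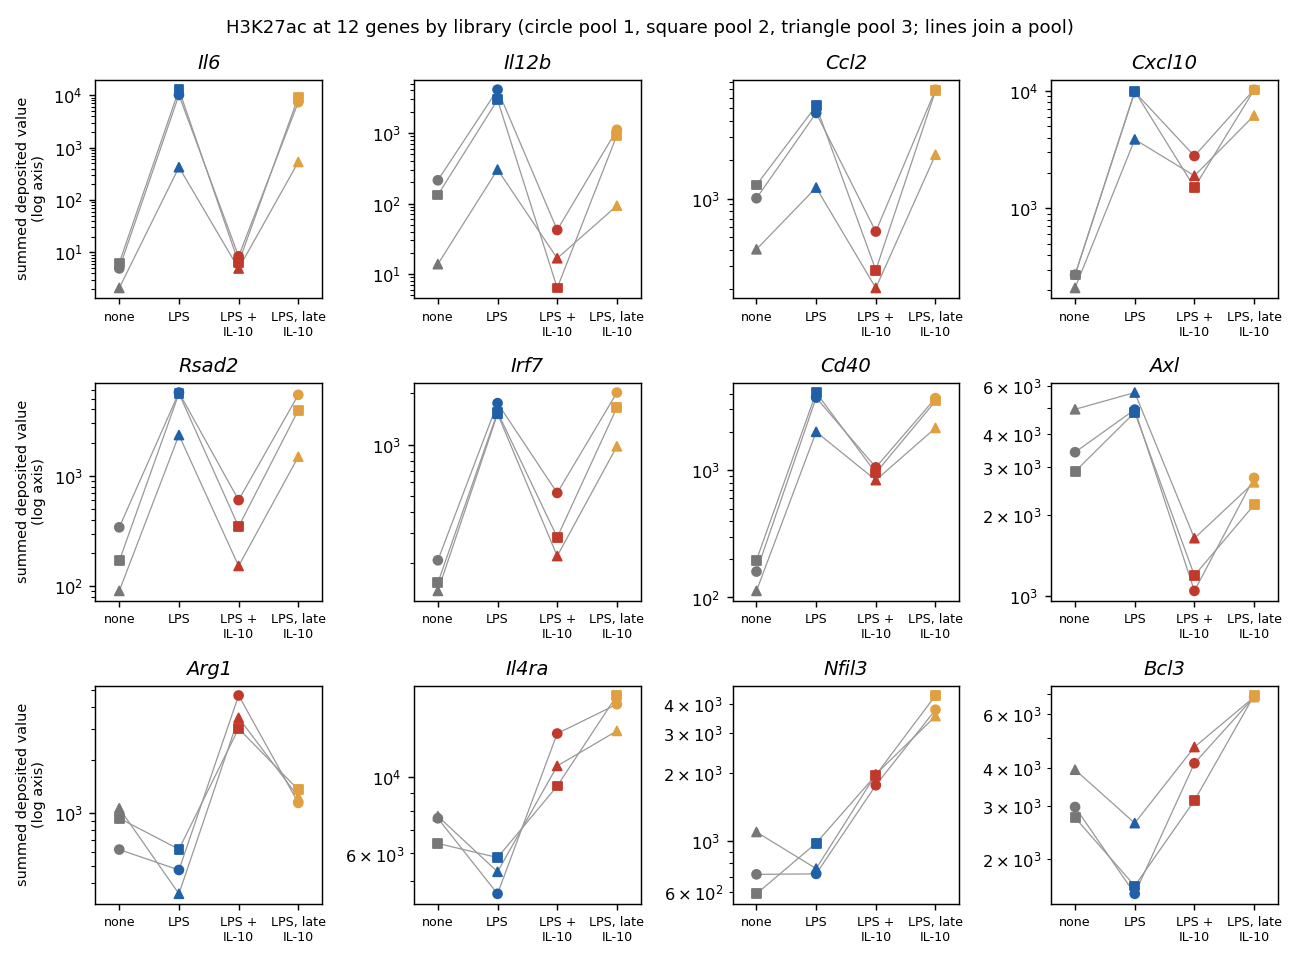
Summed deposited value (log axis) of 12 genes in untreated cells, with LPS, with LPS and continuous IL-10, and with LPS and late IL-10. Each symbol is 1 library, lines join the libraries of 1 pool, and in each panel the 3 LPS libraries lie apart from the 3 continuous ones.

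Interferon response genes fell at 36 of 43 members tested, and none rose, beside 10.2% of all genes lower and 7.33% higher. Their median was -1.42. Without the block 15 fell, and the count was 22 without LPS replicate 2. Rsad2, which encodes viperin, an antiviral enzyme, had LPS values of 5686, 5582 and 2343 and continuous values of 604, 347 and 153. In every pool the continuous value lay nearer to the untreated than to the LPS value, with untreated values of 342, 170.2 and 90.9. The difference was -3.72 (SE 0.23, adjusted p = 9.84e-08). Its neighbour Cmpk2 shares a region with it and differed by -3.98 (SE 0.24, adjusted p = 8.23e-08).

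Other antiviral genes fell in the same way. Ifit2, whose product binds viral RNA, had LPS values of 3392, 4297 and 1247 and continuous values of 671, 239 and 52.2, for a difference of -3.68 (SE 0.38, adjusted p = 2.87e-05). Slfn4, a Schlafen family gene, differed by -2.81 (SE 0.32, adjusted p = 3.88e-05) and Isg15, a ubiquitin-like protein gene, by -1.49 (SE 0.32, adjusted p = 0.00411). Ifit1 differed by -1.88 (SE 0.29, adjusted p = 3.47e-04) with an adjusted p of 0.0742 without the block. Ifnb1, the interferon beta gene, had LPS values of 1027, 1039 and 546 and continuous values of 187, 219.8 and 225. The groups did not overlap, the untreated values were 371, 241 and 198, and the difference was -1.99 (SE 0.30, adjusted p = 2.94e-04). Oasl1, a 2′-5′-oligoadenylate synthetase-like gene, differed by -1.86 (SE 0.44, adjusted p = 0.0132). That call was lost without LPS replicate 2, LPS replicate 3, continuous replicate 1 and continuous replicate 2 (adjusted p = 0.0628, 0.056, 0.0768 and 0.0609) and without the block (0.117). Mx1 has no region in the table.

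The interferon-inducible GTPases, which act against intracellular pathogens, fell at 13 of 16 genes, beside 10.2% of all genes lower. None of the 16 was higher, and their median was -1.71. Only 2 of them were called without the block, and the count was 5 without LPS replicate 2, 6 without continuous replicate 2 and 7 without LPS replicate 1. Gbp7, a guanylate-binding protein gene, had LPS values of 5816, 7734 and 1962 and continuous values of 1416, 862 and 555, which did not overlap, for a difference of -2.34 (SE 0.25, adjusted p = 1.78e-05). Gbp3 differed by -1.93 (SE 0.24, adjusted p = 6.86e-05). Gbp2 and Tgtp1, a T cell-specific GTPase gene, differed by -1.61 (SE 0.27, adjusted p = 7.76e-04) and -2.90 (SE 0.52, adjusted p = 0.00135), but without the block their adjusted p was 0.234 and 0.052. Gbp5 had LPS values of 6332, 8468 and 2029.7 and continuous values of 1383, 997 and 494. Its libraries did not overlap either, but the summed value was not called (log2 difference -2.44, SE 0.82, adjusted p = 0.0904), while 3 of its 5 regions were, 1 of them also without the block. Neighbouring Gbp genes share regions in part and are not independent.

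Among the transcription factors and kinases of interferon and cytokine signalling, 7 of 23 fell and 3 rose (median -0.18; 4 and none without the block). The count of rises was 1 without any one of LPS replicate 1 and continuous replicate 1. Over all genes, 7.33% were higher and 10.2% lower. Irf7, the factor that amplifies the interferon response, had LPS values of 1753, 1551 and 1518 and continuous values of 519, 285 and 221. The LPS libraries lay close together, all continuous ones were below them, and the difference was -2.32 (SE 0.25, adjusted p = 2.49e-05). Stat2 had LPS values of 1114, 1297 and 1215 and continuous values of 523, 344 and 296, again without overlap, for a difference of -1.68 (SE 0.27, adjusted p = 5.53e-04). Tyk2, which encodes a kinase of both the interferon and the IL-10 receptor, differed by -1.89 (SE 0.22, adjusted p = 3.42e-05), and Irf1 by -1.10 (SE 0.19, adjusted p = 9.47e-04). Stat3, the factor IL-10 acts through, had LPS values of 1328, 1128 and 917 and continuous values of 1037, 1015 and 902, which overlapped, and was not called (log2 difference -0.18, SE 0.24, adjusted p = 0.685).

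Promoter windows in lower regions held the interferon-type sequence (GAAANNGAA followed by A) at a higher share than other windows. Over RefSeq windows from 250 bases before to 50 after each start site, it was found on either strand in 9.33% of 1040 windows in lower regions, 3.98% of 880 in higher regions, 2.83% of 12861 in regions without a call and 3.44% of all 32851. With calls made without the block, the shares were 9.14% of 372 windows in lower and 4.57% of 350 in higher regions. In the interferon response list, 16 of 35 genes with a window held it, 15 of them among the 30 with a window in a lower region. Among the GTPases 9 of 10 held it, 7 of them among the 8 with a window in a lower region. The other motifs searched were TTCNNNGAA (7.12% of windows in lower and 9.89% in higher regions), TTCCNGGAA (1.54% and 1.02%), each match of which also matches the former, GGGANTTTC followed by C (1.06% and 0.909%), the AP-1 sequence TGANTCA (8.08% and 9.09%) and the PU.1-type sequence GAGGAAGT (4.23% and 5.34%). Their shares over all windows were 8.3%, 1.15%, 0.411%, 7.81% and 3.2%. In regions without a call they were 6.87%, 1.23%, 0.397%, 5.35% and 3.32%. All motifs searched but TTCCNGGAA, the interferon-type sequence among them, were thus above their shares in uncalled regions in both directions. Windows in no region held the AP-1 sequence at 9.59%, above both called classes. The NF-kB-type sequence was in only 11 windows of lower and 8 of higher regions. Of 29 IL-10 and STAT3 target genes with a window, 9 held TTCNNNGAA. Of the 12 with a window in a higher region 1 held it, and this was Socs3. A gene can have several windows, so windows are not independent, the motifs were chosen with results known, and no test was made. A match in sequence is not a bound site.

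The list of IL-10 and STAT3 target genes moved the other way at most called members. Of 36 tested, 16 rose and 3 fell, beside 7.33% of all genes higher and 10.2% lower. The median was 0.52, and 8 rises and 2 falls were called without the block. The count of rises was 7 without LPS replicate 1, and that of falls was 1 without LPS replicate 2. Arg1, which encodes arginase 1, an enzyme that consumes arginine in alternatively activated macrophages, had LPS values of 474, 622 and 347 and continuous values of 4640.3, 3012 and 3464. Every continuous library was above all LPS and all untreated libraries (619, 933 and 1061), and the difference was 2.96 (SE 0.27, adjusted p = 4.57e-06). All 4 Arg1 regions rose. With late IL-10 the values were 1139, 1353 and 1232.

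Il4ra, the IL-4 receptor alpha chain gene, had LPS values of 4579, 5838 and 5305 and continuous values of 13402, 9428 and 10786, without overlap, for a difference of 1.09 (SE 0.19, adjusted p = 9.11e-04). The rise was uneven over the gene: an upstream region differed by 6.53 and the one over the start site by 2.23, while the downstream region of 62125 bp was not called (0.47). Nfil3, a repressor gene that IL-10 induces and that acts on Il12b, had LPS values of 720.1, 983 and 759.6 and continuous values of 1765, 1956 and 1972. All continuous libraries were higher, all 4 tested regions rose, and the summed difference was 1.22 (SE 0.23, adjusted p = 0.00201). Bcl3, an inhibitor of NF-kB that IL-10 induces, differed by 1.06 (SE 0.19, adjusted p = 0.00141) and Pdcd1lg2, which encodes the inhibitory ligand PD-L2, by 1.16 (SE 0.19, adjusted p = 6.78e-04). Late IL-10 gave 3789.8, 4379 and 3552 at Nfil3 and 6833, 6912 and 6828 at Bcl3, where the continuous libraries had 4136, 3119.7 and 4676.

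**Figure D3:**
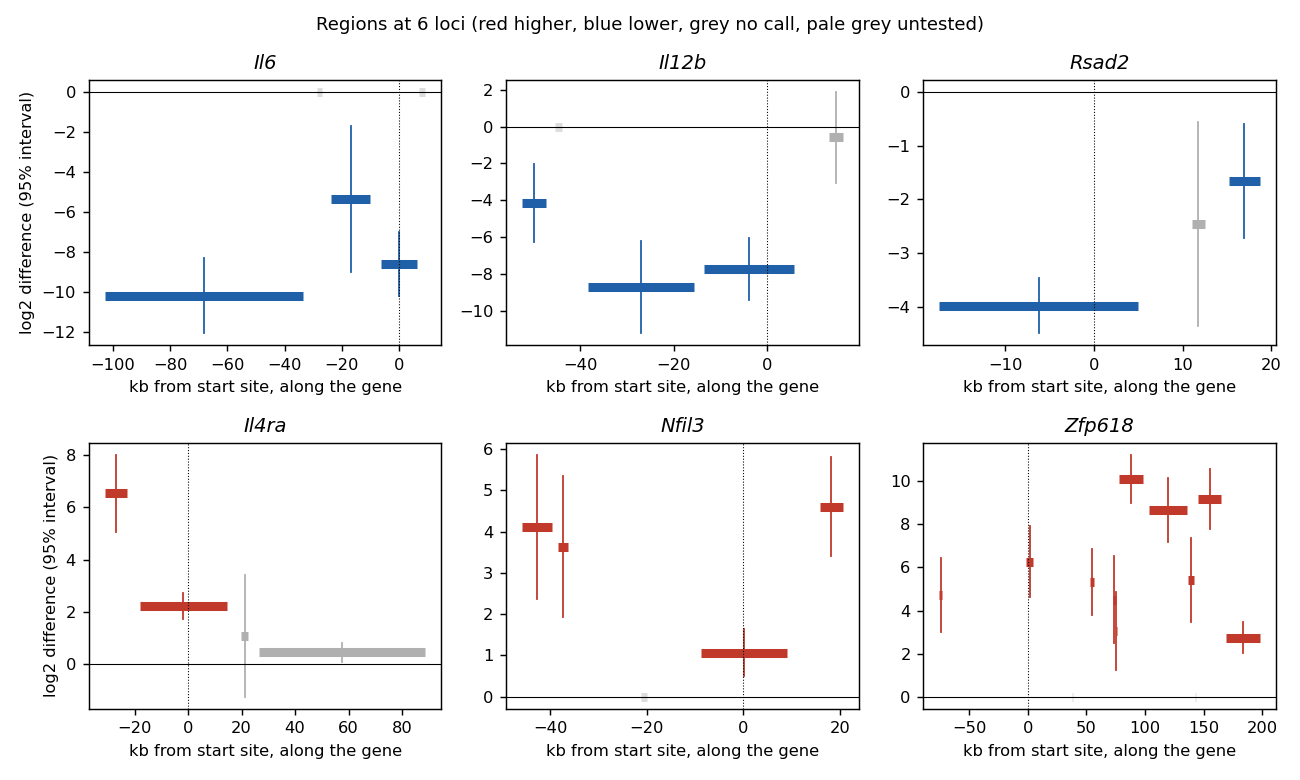
Regions at 6 loci by distance from the gene's start site along the direction of transcription (kb), with the log2 difference as a horizontal bar over the region's width and its 95% interval as a vertical line. Tested regions at Il6 all fell, those at Nfil3 and Zfp618 all rose, and Il12b, Rsad2 and Il4ra each include a tested region without a call.

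Socs3, the feedback inhibitor of STAT3-linked receptors, had LPS values of 14682, 18663 and 17100.4 and continuous values of 26550.0, 25317 and 26424. The libraries did not overlap, but the difference was small at 0.64 (SE 0.19, adjusted p = 0.0289), and the call was lost without LPS replicate 1, LPS replicate 3, continuous replicate 1 and continuous replicate 2 (adjusted p = 0.14, 0.0794, 0.136 and 0.0832) and without the block (0.103). Sbno2, a corepressor gene, differed by 0.72 (SE 0.19, adjusted p = 0.0152), a call lost without LPS replicate 1, LPS replicate 2 and continuous replicate 2 (adjusted p = 0.113, 0.0717 and 0.0801) and without the block (0.216). Etv3, a repressor gene, differed by 0.58 (SE 0.19, adjusted p = 0.0447), lost without LPS replicate 1, LPS replicate 2, LPS replicate 3, continuous replicate 1 and continuous replicate 3 (adjusted p = 0.18, 0.108, 0.0731, 0.178 and 0.145) and without the block (0.181). Hmox1, which encodes heme oxygenase 1, differed by 0.79 (SE 0.20, adjusted p = 0.0118), lost without LPS replicate 1 and continuous replicate 1 (adjusted p = 0.105 and 0.0669). Zfp36, which encodes an mRNA-destabilizing protein, was at 4091, 5125 and 5336 with LPS and 6551, 6374 and 6455 with continuous IL-10, and Il1rn, whose product blocks the IL-1 receptor, at 7638, 8069.6 and 2049 and 11243, 6013 and 3693. Neither was called (log2 difference 0.42, SE 0.18, adjusted p = 0.134 for the first; 0.33, SE 0.25, adjusted p = 0.441 for the second).

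Genes of the NF-kB pathway and of LPS sensing were mixed, beside 7.33% of all genes higher and 10.2% lower. Of 29 NF-kB pathway and feedback genes, 10 fell and 2 rose (median -0.19; 2 and 1 without the block), and the count of falls was 2 without any one of LPS replicate 1 and LPS replicate 2, 3 without continuous replicate 2 and 5 without continuous replicate 3. The count of rises was 1 without any one of LPS replicate 1, LPS replicate 2, LPS replicate 3, continuous replicate 1 and continuous replicate 2. Map3k8, which encodes the kinase TPL2, rose, with LPS values of 2379, 3415 and 1667 and continuous values of 7453, 5761 and 5110.3 and a difference of 1.34 (SE 0.20, adjusted p = 3.28e-04). Tnfaip2, a gene that TNF induces, differed by -1.05 (SE 0.23, adjusted p = 0.00459) while Bcl2a1d, an anti-apoptotic NF-kB target gene, differed by -1.87 (SE 0.29, adjusted p = 5.00e-04), with 0.0622 without the block. Of 25 genes of LPS and Toll-like receptor sensing, 6 fell and none rose (median -0.20; 2 without the block), and the count was 1 without LPS replicate 2, 2 without continuous replicate 2 and 3 without LPS replicate 1. Among them Cd180, a TLR4-like receptor gene, differed by -0.96 (SE 0.20, adjusted p = 0.00383).

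Among inflammatory effector genes, 7 of 37 fell and 2 rose (median -0.27; 4 and none without the block). The count of rises was 1 without any one of LPS replicate 1, LPS replicate 2 and continuous replicate 2. Over all genes, 7.33% were higher and 10.2% lower. Cd40, a co-stimulatory receptor gene, had LPS values of 3715, 4072 and 2000.0 and continuous values of 1052, 951 and 835, with no overlap and a difference of -1.72 (SE 0.21, adjusted p = 6.96e-05). Icam1, an adhesion molecule gene, differed by -1.07 (SE 0.20, adjusted p = 0.00184). Serpinb2, a serine protease inhibitor gene, rose by 1.75 (SE 0.31, adjusted p = 0.00135), with 0.252 without the block. Nos2, the inducible nitric oxide synthase gene, was at 1301, 1002 and 534 with LPS and 2275, 1024 and 724 with continuous IL-10, and Ptgs2, the inducible cyclooxygenase gene, at 5269, 6058 and 601 and 5909.9, 5338 and 1766. Their libraries overlapped and neither gene was called (log2 difference 0.43, SE 0.35, adjusted p = 0.467 for the first; 0.51, SE 0.60, adjusted p = 0.646 for the second). Within Nos2, 1 region inside the gene (chr11:78945275-78956828) rose all the same, from 3.94, 1.68 and 0.464 to 460.3, 215 and 129 (log2 difference 6.45, adjusted p = 5.21e-05), and was singled out after its values were seen.

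Antigen presentation genes fell at 11 of 22 members, with none higher (median -0.71; 3 without the block), and the count was 4 without LPS replicate 2, 5 without LPS replicate 1, 6 without any one of continuous replicate 1 and continuous replicate 3 and 7 without continuous replicate 2. Psmb9, an immunoproteasome subunit gene, and Tap1, a peptide transporter gene, share a region and differed by -1.35 (SE 0.30, adjusted p = 0.00596) and -1.18 (SE 0.27, adjusted p = 0.00618). Tapbp, the tapasin gene, differed by -1.12 (SE 0.21, adjusted p = 0.00185). H2-T23, which encodes the nonclassical class I molecule Qa-1, differed by -1.35 (SE 0.22, adjusted p = 6.30e-04), with 0.0822 without the block. Among immediate early genes, 4 of 32 fell and 1 rose (median -0.20), beside 10.2% of all genes lower and 7.33% higher. None of the 32 was called without the block. Their falls numbered 0 without LPS replicate 2 and 2 without any one of LPS replicate 1 and continuous replicate 1, and their rises 0 without any one of LPS replicate 1, LPS replicate 2, continuous replicate 1 and continuous replicate 2 and 3 without LPS replicate 3.

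Phagocytic receptor and macrophage identity genes were mostly higher where they were called. Over all genes, 7.33% were higher and 10.2% lower. Of 28 phagocytic receptor genes, 9 rose and 3 fell (median 0.29; 1 and 1 without the block). Rises numbered 4 without any one of LPS replicate 1 and continuous replicate 1, and falls 1 without any one of LPS replicate 2 and continuous replicate 2. Of 36 macrophage identity genes, 9 rose and 3 fell (median 0.22; 4 and 1 without the block). Rises numbered 5 without continuous replicate 1, and falls 1 without any one of LPS replicate 1, LPS replicate 2 and continuous replicate 2 and 5 without LPS replicate 3.

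Apoe, the apolipoprotein E gene, differed by 1.5 (SE 0.21, adjusted p = 1.66e-04) and Fcgr3, an activating IgG receptor gene, by 1.31 (SE 0.26, adjusted p = 0.00225). Trem2, a lipid-sensing receptor gene, differed by 1.42 (SE 0.25, adjusted p = 0.00106) and Scarb1, the HDL receptor gene, by 2.21 (SE 0.34, adjusted p = 3.67e-04), with 0.067 and 0.0574 without the block. Among the 12 tested Scarb1 regions 5 rose and 1 fell. Gpnmb, a glycoprotein gene of phagocytes, differed by 0.95 (SE 0.18, adjusted p = 0.00184), with 0.0792 without the block. Axl, which encodes a receptor that clears apoptotic cells and is induced by interferon, went the other way. Its LPS values were 4913, 4798 and 5685 and its continuous values 1042, 1189 and 1635, all below every untreated library (3412, 2893 and 4926), and the difference was -2.02 (SE 0.19, adjusted p = 6.92e-06).

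**Figure D4:**
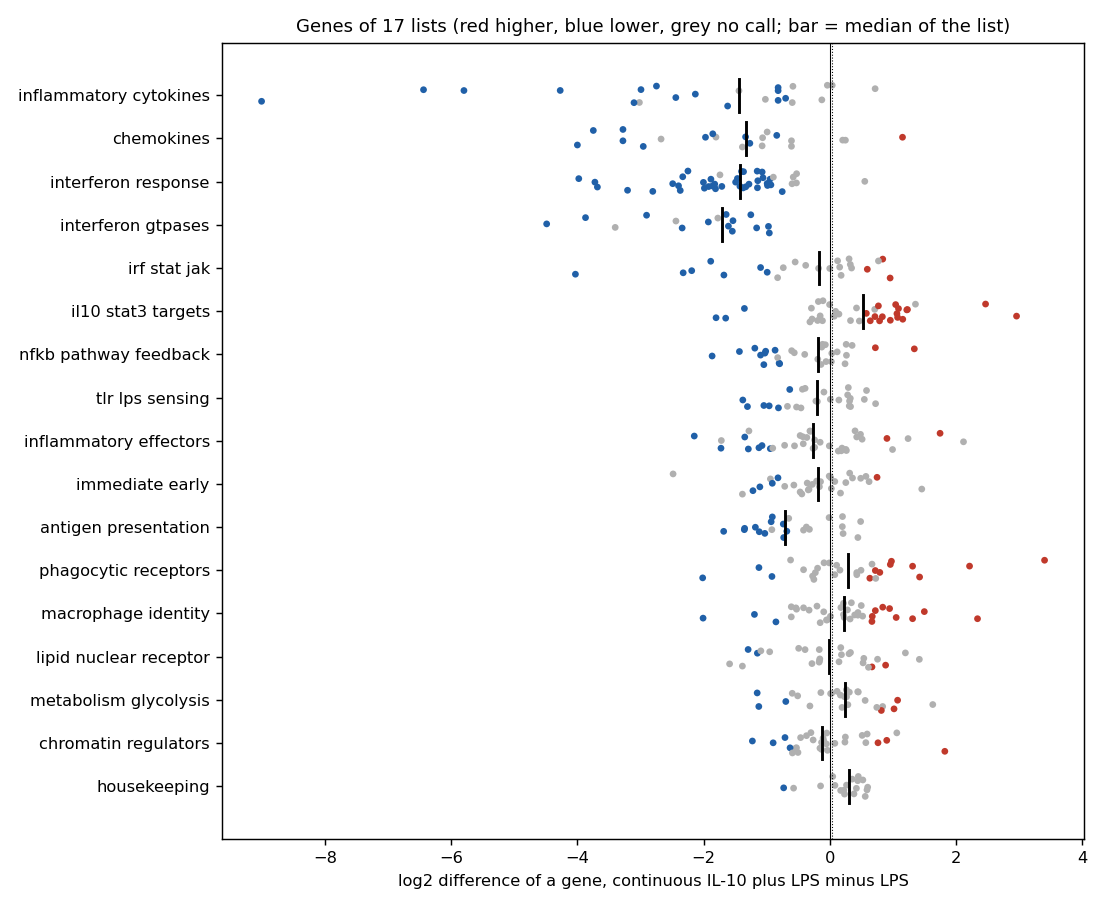
Each point is a gene of 1 of 17 lists, placed by its log2 difference, with red for higher, blue for lower and grey for no call. The black bar is the list's median, the dotted line the median over all genes of 0.03, and the 4 top lists lie mostly below 0.

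Among lipid and nuclear receptor genes 2 of 26 were higher and 2 lower, and among glycolysis and metabolism genes 3 of 26 and 3. Chromatin regulators had 3 of 30 higher and 4 lower, and housekeeping genes none of 18 higher and 1 lower. Over all genes, 7.33% were higher and 10.2% lower. The count of higher metabolism genes depended on scaling and tool: it was 7 of 26 with median centring, 7 with quantile normalization, 6 with edgeR and 7 with DESeq2, both with the block. B2m was not called with median centring. In these lists the calls without the block numbered 1 and 0, 1 and 1, 0 and 0, and 0 and 0, higher and lower in that order. Leaving out 1 library moved these small counts. Lipid gene rises numbered 1 without any one of LPS replicate 1, LPS replicate 2 and continuous replicate 3, and falls 1 without any one of LPS replicate 1, LPS replicate 2, continuous replicate 1 and continuous replicate 2 and 4 without continuous replicate 3. Metabolism gene rises numbered 1 without LPS replicate 1 and 6 without continuous replicate 3, and falls 1 without any one of LPS replicate 1, LPS replicate 2 and continuous replicate 2. The housekeeping gene that fell, B2m, was not called without any one of LPS replicates 1 and 2 and continuous replicates 1 and 2. Among the chromatin regulators, rises numbered 0 without LPS replicate 1, 1 without any one of LPS replicate 2 and continuous replicate 2 and 5 without LPS replicate 3 and falls 0 without any one of LPS replicate 1, LPS replicate 2 and continuous replicate 1 and 2 without any one of continuous replicate 2 and continuous replicate 3. Plin2, a lipid droplet gene, differed by 0.88 (SE 0.19, adjusted p = 0.00483), Pfkfb3, a regulator of glycolysis, by 1.02 (SE 0.19, adjusted p = 0.00144), and Abcg1, a cholesterol exporter gene, by -1.29 (SE 0.25, adjusted p = 0.00228), the last with 0.0813 without the block. Among the 8 tested Pfkfb3 regions 2 rose and 1 fell. Slc2a6, a sugar transporter gene, differed by -1.15 (SE 0.25, adjusted p = 0.00507). Pparg, a nuclear receptor gene of resting macrophages, was at 866, 958 and 854 with LPS and 873, 845 and 1407 with continuous IL-10 and was not called (log2 difference 0.18, SE 0.24, adjusted p = 0.675). Untreated cells had 4506, 5061 and 3361.

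The largest rises over a gene were at Zfp618, which encodes a zinc finger protein. Over the region chr4:63042912-63064022 inside the gene, the LPS libraries lay at 1 read and the continuous values were 3480.2, 2172 and 2052, at least 625-fold higher in the deposited value, with 1648, 1484 and 1449 after late IL-10 and untreated values of 0.707, 1.26 and 2.09. All 10 tested Zfp618 regions rose, and the summed value went from 710.3, 460.4 and 863 to 14943, 8676 and 10585 (log2 difference 4.08, SE 0.32, adjusted p = 3.68e-06). Among the regions listed by the rule below, the next rise over another gene was over Acat3 and Acat2 (chr17:12934831-12945831), at least 140.3-fold.

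Some of these regions had H3K27ac in untreated cells and lay at the floor with LPS. Over Nxpe5 (chr5:138220100-138232943) the untreated values were 1349.6, 1488 and 1180.3, the LPS libraries lay at 1 read and the continuous values were 341, 277 and 321. Over Tram2 (chr1:21032308-21038769), the gene of a translocon-associated protein, they were 274, 314 and 270.1 untreated and 279.9, 368 and 335 with continuous IL-10. The rise was at least 76.1-fold and 79.7-fold. Of the regions listed that overlap a gene, the largest fall after those over Il6 and Il12b was over Pappa2 (chr1:158868879-158878830), which encodes a protease of IGF-binding proteins, from 1479.6, 1302 and 178 to 10.1, 1.27 and 0.986 (log2 difference -7.57, adjusted p = 2.59e-06). The rule asked that a region overlap a protein-coding gene, be called with and without the block, move one way in all pools and have a mean of at least 200 in the higher group. It was met by 755 regions, 375 of them higher, and left out regions beside genes, such as the upstream ones of Il6 and Il12b.

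Some called regions of one direction followed each other along a chromosome. With gaps of at most 50 kb and no tested region without that call between, 405 runs of 2 or more higher and 471 of lower regions held 39.3% of the higher and 36.1% of the lower regions, and 31 and 24 runs had 5 or more. Without the block there were 162 and 98 runs of 2 or more, with 33.2% and 19.9% of the called regions, and 8 and 3 of 5 or more. The longest was 10 higher regions over Arid1b, a chromatin remodelling subunit gene, along 117 kb, where the summed value was 289, 387 and 347 with LPS and 2310.0, 1755 and 1755 with continuous IL-10. Every library of the continuous group was higher, and 6 of the 10 calls held without the block. A run of 7 higher regions lay over F13a1, the coagulation factor XIII gene of macrophages, at 895, 1123 and 735 with LPS and 6578, 5931 and 5384 with continuous IL-10, and 6 calls held. A run of 8 lower regions lay over Prr5l and Commd9, at 4451, 4354 and 1720.4 and 691, 428 and 502, where 6 held. A run of 7 lower regions lay at Ripk2, the kinase of NOD receptors, at 6523, 8384 and 2003 and 1929, 1569 and 995, and no call of it held without the block. These runs were chosen after their values were seen.

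The share of regions called was given by place and width. Of 8770 tested regions with a promoter window, 4.24% were higher and 6.61% lower, against 9.44% and 10.4% of 8803 regions outside genes but within 100 kb of one. The median difference of called regions was 1.38 and -1.43 at promoters and 2.91 and -3.19 outside genes. Among the 9155 regions with the highest values, the shares were 6.5% and 9.53% at promoters and 19.4% and 16.3% outside genes. By width, the shares went from 0.85% higher and 3.32% lower at up to 1 kb to 21.3% and 14.3% over 20 kb. Without the block they were 1.54% and 2.19% at promoters and 4.51% and 4.08% outside genes, and went from 0.283% and 1.09% at up to 1 kb to 10.7% and 4.64% over 20 kb. Median values went with width, from 8.33 at up to 1 kb to 1814 over 20 kb, and the part of read number in these shares was not tested. Some genes had calls in both directions: of 1135 genes with at least 2 called regions, 255 (22.5%) had both a higher and a lower one, against 49 of 339 (14.5%) without the block.

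**Figure D5:**
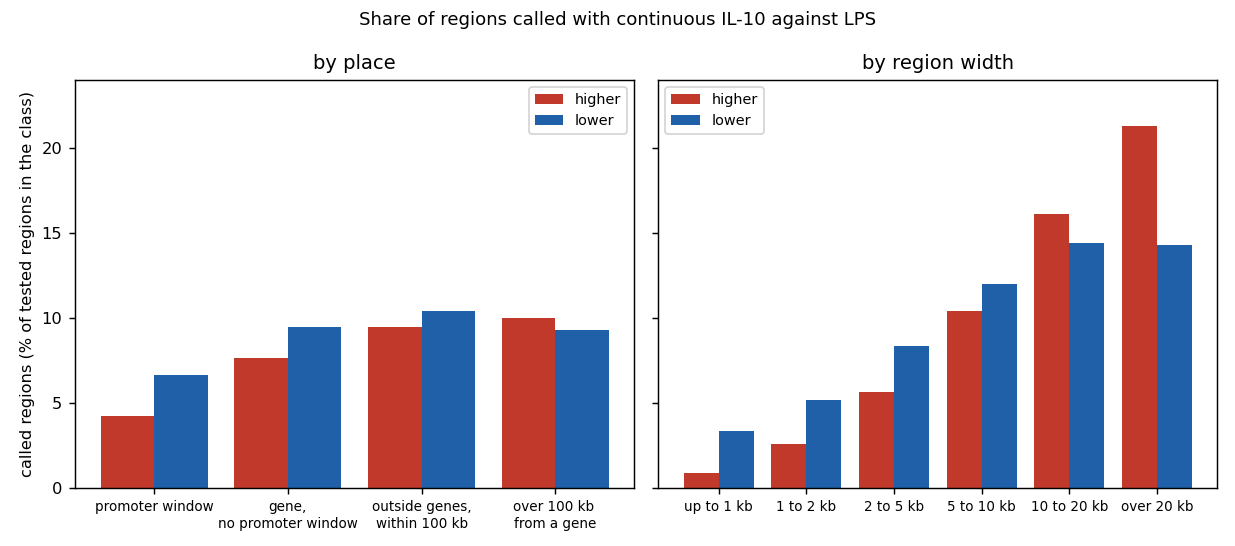
Bars give the share of tested regions called higher (red) or lower (blue) by place on the left and by region width on the right. At promoter windows 4.24% were higher and 6.61% lower, and over 20 kb 21.3% and 14.3%.

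Of 1005 miRNA hairpins in the RefSeq table, the genes of 240 lay in a region, and 235 of these in a tested one. A higher region held 28 (11.9%) and a lower one 16 (6.81%), beside 7.42% and 8.98% of all tested regions. The first shares count hairpin genes, some of which share a region, and the others count regions. Of tested regions over 20 kb, 21.3% were higher and 14.3% lower, and the part of width was not tested. Without the block 6 and 6 of the hairpin genes kept the call, and 9 and 6 kept it whichever library was left out. For 2 of them, chosen after their values were seen, the mature sequence is shown with the seed (bases 2 to 8) in capitals, as seeds set which mRNAs a miRNA pairs with.
mmu-miR-155-5p: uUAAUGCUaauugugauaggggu
mmu-miR-511-3p: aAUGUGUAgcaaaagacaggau
The region over Mir155 (chr16:84696250-84722216), the gene of a miRNA of macrophage activation, lay at 1 read in untreated cells, at 7585, 12074 and 3077 with LPS and at 3801, 3807 and 1132 with continuous IL-10. Each pool was lower with IL-10 but the groups overlapped, since LPS replicate 3 lay below continuous replicates 1 and 2. The log2 difference was -1.37 (adjusted p = 0.00574), and the call was lost without LPS replicate 2 (0.0556) and without the block (0.236). The region over Mir511 (chr2:14257446-14264116), which lies inside Mrc1, the mannose receptor gene, was at 11.8, 1.68 and 0.464 with LPS and 55.6, 61.0 and 22.7 with continuous IL-10. Those groups did not overlap (log2 difference 3.56, adjusted p = 0.00525), with 0.0518 without the block.

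Markers of other cell types moved in part, beside 7.33% of all genes higher and 10.2% lower. Of 10 neutrophil markers 6 had a region and 3 rose: Elane, the neutrophil elastase gene, went from 1.97, 1.68 and 75.1 to 96.1, 348 and 485 (log2 difference 4.91, SE 0.78, adjusted p = 0.00131), Mmp8 differed by 1.31 (SE 0.25, adjusted p = 0.00202) and S100a8 by 1.87 (SE 0.44, adjusted p = 0.00825), the last lost without LPS replicate 1 and continuous replicate 2 (adjusted p = 0.0622 and 0.0568) and without the block (0.0686). Their summed value was 2353 to 2701 with LPS and 3625 to 4064 with continuous IL-10, and 2912 to 4353 in untreated cells. Mpo, Cxcr2, Ngp and S100a9 had no region and Ly6g lay at the floor. Of 9 dendritic cell markers 8 had a region and 4 fell, with summed values of 7499 to 18952 and 7841 to 12739. The difference was negative at 5 of the 8 and positive at 3, and none of the 8 was called higher. Without the block 2 fell. Among the markers Zbtb46 differed by -1.52 (SE 0.29, adjusted p = 0.00185). The count of falls was 2 without any one of LPS replicate 1, LPS replicate 2 and continuous replicate 2.

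The counts that follow stand beside 7.33% of all genes higher and 10.2% lower. Of 10 T cell markers 6 had a region, 1 fell and none rose, with summed values of 850.0 to 1007 with LPS and 425 to 579.5 with continuous IL-10. It was Cd8b1, which differed by -3.43 (SE 0.80, adjusted p = 0.00758), a call lost without LPS replicate 2 (adjusted p = 0.0508) and without the block (0.0888). With edgeR and with DESeq2, both with the block, 3 T cell markers fell. Cd3g, Cd8a, Trac and Trbc2 had no region. Of 7 B cell markers 4 had a region and 1 fell (1725 to 2280.4 and 1844 to 2659), and it was called in no fit that left out 1 library. Of 7 fibroblast markers 5 had a region and none was called (6096 to 13824 and 8501 to 17855), with Col1a1 at the floor. Of 9 mast cell and erythroid markers 4 had a region and 2 rose (179.8 to 326 and 202 to 283), among them the mast cell protease gene Cpa3, at least 6.24-fold higher, and rises numbered 1 without any one of LPS replicate 1, LPS replicate 2, continuous replicate 1 and continuous replicate 2, 1 without the block and 1 with edgeR. The part of other cells in the results was not tested. The animals make no mature lymphocytes, so the T and B cell markers do not count such cells in any group. For the other types, fewer cells of a type and less H3K27ac per cell cannot be told apart in bulk libraries.

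At Il10ra, the receptor gene that IL-10 binding needs, the summed values of 10786, 12741 and 10271 with LPS and 9346, 8489 and 9230.1 with continuous IL-10 were not called (log2 difference -0.32, SE 0.18, adjusted p = 0.264). Of its 2 regions 1 (chr9:45260561-45304500) fell, from 5346, 5683 and 3764 to 3253, 2795 and 3292 (log2 difference -0.64, adjusted p = 0.0492), and its libraries did not overlap. That call was lost without the block (0.124) and without any one library but LPS replicate 3, with adjusted p up to 0.225. Regions at Il10 and Rag2 check nothing of the genotype, since the labels do not give the deleted parts.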

How the data were processed

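H3K27ac ChIP-seq was done on bone marrow-derived macrophages with antibody ab4729, per the labels' protocols. The submitters' processing notes name Trim Galore, Bowtie2, MACS2, DiffBind and mm10; no version or role is given there, and the labels do not say if input was subtracted. The deposited signal covers 40691 consensus regions in 12 libraries, and 100% of values were whole reads times 1 factor per library (within 0.0001 reads). The input library was not analysed here.

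Differences were fitted with limma 3.58.1 (trend, robust) on log2(deposited value + 1) over all 12 libraries, with group and macrophage pool as terms. The pseudocount understates the change of low values. Features in the lowest 10% by mean log2 value were left out, and p-values were adjusted by the Benjamini-Hochberg method over all others, with a threshold of 0.05. The replicate number was taken as the pool because the design text describes 3 independent pools per stimulation. Deviations of same-numbered LPS and continuous libraries correlated at 0.339, 0.201 and 0.576, although LPS replicate 2 with continuous replicate 1 gave 0.367. The block was chosen with knowledge that it gives more calls, so counts without it are printed beside the main ones.

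Gene values were summed over the regions that overlap a protein-coding RefSeq gene (GRCm38.p6), or for which it is the nearest gene within 100 kb. Genes that share a region share its value. A log2 difference was computed for each of these sums. The floor for folds was 3 reads per region and library. Folds compare group means, so a single pool can lie below them. No exact test over 3 against 3 libraries was used. Named genes were a panel, the 4 list members with the smallest adjusted p, and the 10 regions each with the largest rise and fall among those overlapping a protein-coding gene, called with and without the block, moving one way in all pools and with a mean of at least 200 in the higher group. Members, lists and motifs were chosen with earlier results of these data known. The code was tried on simulated data that had no pool effect, which cannot judge the pool block or the calls made with it. Alternatives used edgeR 4.0.16 and DESeq2 1.42.0 on the recovered read counts, other filters, pseudocounts and scalings, and leaving out each library. Some items withheld for evaluation are not reported here.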

Additional observations from a re-analysis of the deposited data

How the results depend on the processing

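Without the replicate block, 1201 regions were higher and 1186 lower, and 351 genes were higher and 432 lower; with edgeR without the block, an alternative added after the data were seen, the counts were 813, 1028, 292 and 335. When each of the 6 compared libraries was left out in turn, the counts ranged from 1694 to 2507 higher and 1439 to 3585 lower regions, and from 494 to 1249 higher and 566 to 1481 lower genes. Leaving out LPS replicate 1 gave 494 higher and 694 lower genes, LPS replicate 2 gave 573 and 566, and continuous replicate 2 gave 627 and 832. The block changed the call of 40 of 109 called genes and regions followed by name. With edgeR without the block, 61 of the 109 lost their call. The other alternatives (edgeR and DESeq2 with the block, quantile and median scaling, other pseudocounts and filters, only the 6 libraries, other rules for overlap) kept the 4 counts of regions and genes within 1.5 times of the main ones. Among the lists, higher metabolism genes went from 3 to 6 or 7 (median centring, quantile normalization, edgeR, DESeq2), higher immediate early genes from 1 to 2 with the same alternatives, and lower T cell markers from 1 to 3 (edgeR, DESeq2). Quantile normalization gave 2 higher antigen presentation genes and 1 higher gene each in the interferon response, LPS sensing and housekeeping lists, each from 0. No called region had an opposite call in any alternative. Of the called regions, 39.7% were called without the block, and 30.5% with edgeR without the block. Of results that were not called, Pparg ranged from -0.15 (without continuous replicate 3) to 0.39 when 1 library was left out, and Ptgs2 from -0.19 (without LPS replicate 3) to 0.95, with -0.019 by edgeR without the block; the cause was not tested. With 1 library of a group left out, the fit takes its spread from all groups. Between 22.5% and 29.9% of regions lay at 1 read in these libraries, so small differences at low regions were not detectable at this depth.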
